A study of Homo sapiens with 6 samples.

Results

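The genes described here are 10 nuclear genes that run transcription, translation and protein quality control in mitochondria, out of the 25528 gene symbols measured. They are a list of named genes: LONP1, CLPP and YME1L1 encode proteases, TFAM, POLRMT and TFB2M encode the core transcription machinery, TUFM and GFM1 encode translation elongation factors, and PPARGC1A and NRF1 encode regulators of mitochondrial biogenesis. All were measured by RNA-seq in DU145 cells, a human prostate cancer line, that carried a DOX-inducible shRNA against the lncRNA XIST (tet-XISTshRNA) and had been selected with puromycin or geneticin. The 3 vehicle samples received 0.1% DMSO and the 3 DOX samples received 500 ng/ml doxycycline (DOX), each for 7 days. All 6 samples carried the vector, and no DOX-treated samples with a control shRNA were part of these data, so that an action of DOX itself and an action of the shRNA cannot be told apart. Cells were cultured in triplicate per the labels, and the study's methods speak in general of independent biologic replicates for each experiment. What a replicate number of these samples stands for is not given, and p-values measure the spread between these samples, which may in part be technical.

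Mitochondria keep a small genome that a single dedicated RNA polymerase transcribes and that bacterial-type ribosomes inside the organelle translate. Doxycycline belongs to the tetracyclines, which block bacterial ribosomes and can also block mitochondrial ones, and this is why the mRNAs of this machinery are of interest in a DOX-induced experiment. When proteins made on cytosolic ribosomes and imported fall out of balance with those made inside mitochondria, unassembled subunits are met by chaperones and by ATP-dependent proteases, which are themselves encoded in the nucleus.

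Values are given as scaled TPM, that is, the deposited TPM (transcripts per 1000000 transcripts, a level per length of gene) divided by one factor for each sample so that the typical gene has the same level in every sample. The scaling matters because 5 small RNAs (RN7SK, RPPH1 and the RN7SL1, RN7SL2 and RN7SL3 genes) took between 67.5% and 82.6% of a sample's TPM. Across all genes tested, the log2 fold change, DOX minus vehicle, had a median of -0.35 on TPM as deposited and of 0.02 on scaled TPM. Between 5453536 and 64562332 reads fell on genes per sample, with vehicle replicate 3 the lowest and DOX replicate 1 the highest. DOX replicate 1 also stood apart by base composition: with genes divided into 5 equal bins by GC content, its median log2 deviation from the 6-sample mean was -0.33 in the lowest bin and 0.37 in the highest bin. The XIST transcript was listed at 0 in all 6 samples, as was the housekeeping gene EIF4A1, and gives no check of the silencing in these samples. The study separately measured XIST RNA in cells with this vector after 7 days and reports it as silenced by DOX. All 9 epithelial markers of DU145 cells were detected, and 0 of 6 fibroblast markers reached a mean of 1. The summed epithelial markers ranged from 658 to 752 scaled TPM in vehicle samples and from 850 to 1042 in DOX samples. Their part in the results was not tested.

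Promoters of some of these genes are classic targets of NRF1, itself one of the 10 genes, and of ETS factors such as GABPA (also called NRF-2). Promoter windows from 250 bases before to 50 bases after a start site were found in RefSeq (GRCh38.p14) for 7 of the 10 genes, with 9 windows in all. They were searched on both strands for the NRF1 motif GCGCANGCGC and the ETS motif CCGGAAG. The NRF1 motif occurred in 2031 of 35116 human promoter windows of this length (5.78%), and the ETS motif in 3603 (10.3%). The stretches that hold a match are shown 5′ to 3′ on the strand of the gene, with the match in capitals, since they show which of the genes carry the letters of these regulators. The 2 NRF1 matches of POLRMT overlap each other.
TFAM, chr10:58385322-58385381, plus strand, NRF1 motif: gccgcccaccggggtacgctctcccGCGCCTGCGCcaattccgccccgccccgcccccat
POLRMT, chr19:633521-633655, minus strand, ETS then NRF1 motif: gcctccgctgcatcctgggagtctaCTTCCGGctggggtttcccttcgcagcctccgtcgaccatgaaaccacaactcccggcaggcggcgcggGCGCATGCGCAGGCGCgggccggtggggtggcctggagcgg
LONP1, chr19:5720618-5720677, minus strand, NRF1 motif: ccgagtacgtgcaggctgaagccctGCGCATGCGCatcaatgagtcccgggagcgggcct
LONP1, chr19:5720287-5720343, minus strand, ETS motif: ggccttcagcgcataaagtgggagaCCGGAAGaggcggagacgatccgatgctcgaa
GFM1, chr3:158644494-158644550, plus strand, ETS motif: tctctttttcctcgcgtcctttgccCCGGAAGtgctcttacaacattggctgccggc
TUFM, chr16:28846325-28846381, minus strand, ETS motif: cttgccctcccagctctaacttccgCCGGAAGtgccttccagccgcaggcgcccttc
The NRF1 motif thus lay in windows of TFAM, POLRMT and LONP1, and the ETS motif in windows of GFM1, TUFM, POLRMT and LONP1. In GFM1 and in TUFM, the pair of elongation factors, the ETS match began at the same distance, 8 bases before the start site. LONP1 has 2 windows, for different start sites, and each holds one of the motifs. The windows of TFB2M and PPARGC1A held neither motif in these letters. A match is a description of sequence and does not show that a factor binds there.

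None of the 9 tested members was called between vehicle and DOX by limma on log2(scaled TPM + 1) with an adjusted p under 0.05 over all genes tested and a fold change over 1.5. PPARGC1A was under the minimum mean of 1 scaled TPM, and the test ran over 11595 genes. The count of called members was 0 of 9 lower and 0 of 9 higher, and the same test called 0.0% of all genes in each direction. The study, which used DESeq2, reports both downregulated and upregulated genes from its RNA-seq of XIST-silenced DU-145 cells. The 0.0% holds for the test and thresholds used here. With an unadjusted p under 0.05 at any fold, the test had 899 genes lower (7.75%) and 941 higher (8.12%), and among the members 0 were lower and 3 were higher, namely TUFM, POLRMT and CLPP. The median log2 fold change of the 9 members was 0.13, against 0.02 for all genes tested. Both medians were below 0 on TPM as deposited, at -0.23 for the members and -0.35 for all genes.

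**Figure D1:**
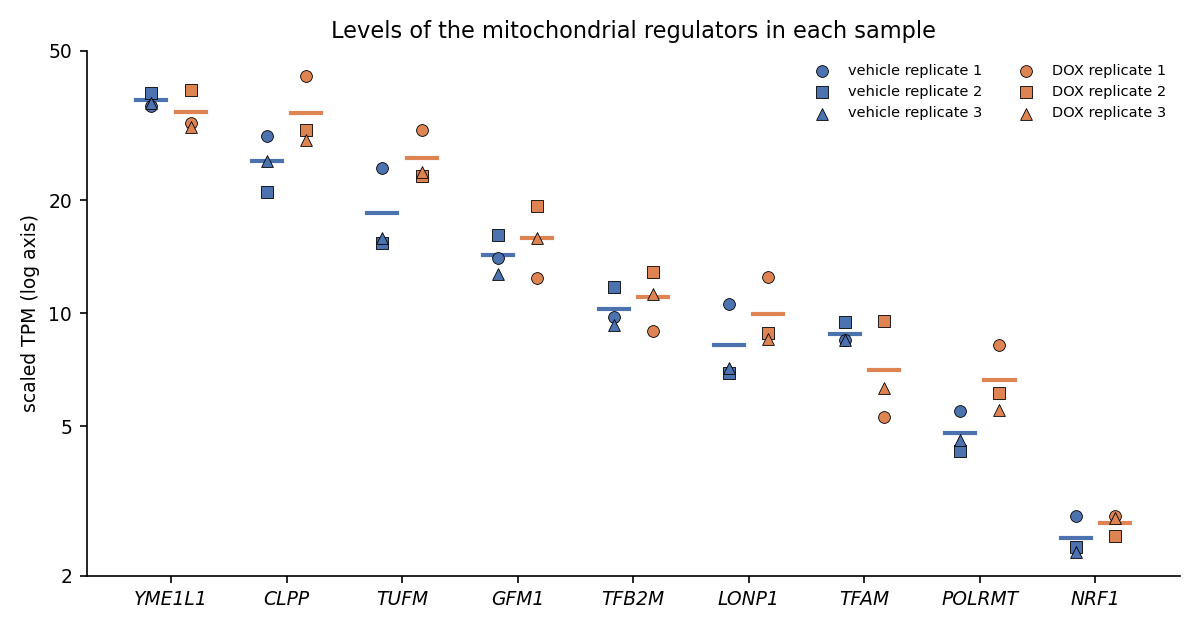
Scaled TPM (log axis) of the 9 tested genes in every sample, ordered by mean level, with vehicle in blue, DOX in orange, 1 marker shape for each replicate number and the group mean as a bar. POLRMT was the one gene of the 9 whose DOX samples (5.54 to 8.23) all lay above its vehicle samples (4.30 to 5.49). PPARGC1A, near 0, is not drawn.

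Of the core transcription machinery, POLRMT was at its highest and TFAM at its lowest in DOX replicate 1, and neither was called. POLRMT (ENSG00000099821.14, chr19:617221-633537, minus strand) encodes the RNA polymerase of mitochondria. With replicates in numerical order here and throughout, it was at 5.49, 4.30 and 4.59 scaled TPM with vehicle and at 8.23, 6.14 and 5.54 with DOX. The lowest DOX sample stood just above the highest vehicle sample, so the groups did not overlap. The mean was 4.79 ± 0.618 (SD, n = 3) with vehicle and 6.64 ± 1.41 (SD, n = 3) with DOX, a log2 fold change of 0.39 (95% interval 0.04 to 0.74, limma adjusted p = 0.290). Among all genes tested, groups that did not overlap were found in 10.9% in the higher direction and 9.15% in the lower direction, and among the members in 1 of 9 and 0 of 9. The POLRMT difference on TPM as deposited was 0.01, and there the groups overlapped.

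TFAM (ENSG00000108064.11, chr10:58385345-58399220, plus strand) encodes the protein that packages mitochondrial DNA and bends its promoters for transcription. TFAM stood at 8.48, 9.49 and 8.48 scaled TPM in vehicle samples and 5.29, 9.54 and 6.34 in DOX samples. DOX replicates 1 and 3 were lower than every vehicle sample, while DOX replicate 2 was the highest of the 6. The means were 8.82 ± 0.583 and 7.05 ± 2.21 (SD, n = 3), with a log2 fold change of -0.32 (95% interval -0.73 to 0.09, limma adjusted p = 0.387). Single DOX samples moved the difference, to -0.16 without replicate 1 and to -0.53 without replicate 2 (limma adjusted p = 0.0882).

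TFAM was also the one member for which the scale and the replicate block together decided the call. On TPM as deposited it was 8.91, 10.5 and 11.97 in vehicle samples and 3.67, 9.60 and 5.89 in DOX samples, a log2 fold change of -0.71 with limma adjusted p = 0.0850. With the replicate number as a block on that scale, limma gave an adjusted p of 0.00343 and TFAM was called lower, 1 of 9 members. That fit called 19.0% of all genes lower and 0.129% higher, and without the block TPM as deposited had 2.98% lower and 0.0257% higher, with 0 members called in either direction. On scaled TPM the block gave TFAM an adjusted p of 0.155 by limma, and it was not called. YME1L1 had an adjusted p of 0.0270 in the blocked fit on TPM as deposited but a fold change under 1.5.

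TFB2M (ENSG00000162851.8, chr1:246540561-246566261, minus strand) encodes the factor that opens the promoter for the polymerase. The TFB2M level was 9.80, 11.7 and 9.30 scaled TPM in vehicle samples and 8.96, 12.9 and 11.3 in DOX samples. The highest and the lowest of the 6 values were both DOX samples, and the groups overlapped. The log2 fold change was 0.09 (95% interval -0.26 to 0.43, limma adjusted p = 0.780) on scaled TPM and -0.32 on TPM as deposited.

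Of the elongation factors, neither was called. TUFM (ENSG00000178952.11, chr16:28842411-28846348, minus strand) encodes the mitochondrial EF-Tu, which brings charged tRNAs to the ribosome. Vehicle and DOX levels of TUFM were 24.4, 15.4 and 15.8 against 30.7, 23.2 and 23.8 scaled TPM. Vehicle replicate 1 reached the range of the DOX samples, and the groups overlapped through that sample. The means were 18.5 ± 5.07 with vehicle and 25.9 ± 4.18 with DOX (SD, n = 3), and the log2 fold change of 0.48 (95% interval 0.07 to 0.90, limma adjusted p = 0.283) was the largest of the 9 members on scaled TPM. The value on TPM as deposited was 0.05.

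GFM1 (ENSG00000168827.15, chr3:158644527-158695581, plus strand) encodes the mitochondrial EF-G, which moves the ribosome along the mRNA. The scaled TPM of GFM1 was 14.03, 16.2 and 12.7 in vehicle samples and 12.4, 19.2 and 15.9 in DOX samples. As with TFB2M, the DOX samples held both extremes. The log2 fold change was 0.13 (95% interval -0.24 to 0.50, limma adjusted p = 0.705), and -0.29 on TPM as deposited.

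Of the proteases, CLPP (ENSG00000125656.11, chr19:6361531-6370242, plus strand) encodes the peptidase core of the ClpXP protease of the matrix. Its scaled TPM was 29.6, 21.1 and 25.4 in vehicle samples and 42.9, 30.7 and 28.9 in DOX samples. Only DOX replicate 3 lay below the highest vehicle sample. The means were 25.4 ± 4.24 and 34.2 ± 7.63 (SD, n = 3), with a log2 fold change of 0.41 (95% interval 0.01 to 0.80, limma adjusted p = 0.303). The sign turned on TPM as deposited, to -0.02.

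LONP1 (ENSG00000196365.12, chr19:5691834-5720572, minus strand) encodes the Lon protease, which degrades misfolded and oxidised matrix proteins and also TFAM. Its scaled TPM was 10.6, 6.93 and 7.17 in vehicle samples and 12.5, 8.87 and 8.53 in DOX samples. Replicate 1 was the highest in both groups, and each DOX sample was above the vehicle sample of the same number. The log2 fold change was 0.25 (95% interval -0.17 to 0.67, limma adjusted p = 0.490), and -0.15 on TPM as deposited. It was 0.09 without DOX replicate 1 and 0.43 without vehicle replicate 1 (limma adjusted p = 0.235).

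YME1L1 (ENSG00000136758.20, chr10:27110111-27155266, minus strand) encodes the AAA protease that faces the intermembrane space. It was measured at 35.6, 38.68 and 36.4 scaled TPM in vehicle samples and 32.04, 39.4 and 31.4 in DOX samples. DOX replicate 2 was the highest of the 6 samples and the other DOX samples were the lowest, the same arrangement as for TFAM. The log2 fold change was -0.11 (95% interval -0.40 to 0.18, limma adjusted p = 0.661), and -0.54 on TPM as deposited.

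Among the biogenesis regulators, NRF1 (ENSG00000106459.15, chr7:129611720-129757082, plus strand) encodes the transcription factor whose motif was searched above. Its scaled TPM was 2.88, 2.38 and 2.31 in vehicle samples and 2.89, 2.55 and 2.85 in DOX samples. The values lay close together and overlapped, with a log2 fold change of 0.10 (95% interval -0.19 to 0.38, limma adjusted p = 0.707) on scaled TPM and -0.23 on TPM as deposited.

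PPARGC1A (ENSG00000109819.9, chr4:23755041-23904089, minus strand) encodes PGC-1α, the coactivator that drives mitochondrial biogenesis in muscle, liver and brown fat. It had 2, 1 and 0 reads in vehicle samples and 3, 1 and 3 reads in DOX samples, as recovered from the TPM. These counts are at or under 3 reads in every sample, so no fold change is given, and a difference was not detectable at this depth (two-sided exact permutation test, p = 0.6, the smallest possible being 0.1). The related coactivators were expressed, and were named after their values were seen. PPRC1 had mean scaled TPM of 9.11 ± 0.725 with vehicle and 11.8 ± 2.11 with DOX, and PPARGC1B had 1.11 ± 0.102 and 1.24 ± 0.271 (SD, n = 3).

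By mean scaled TPM over the 6 samples, the members ranked YME1L1 (35.6), CLPP (29.8), TUFM (22.2), GFM1 (15.1), TFB2M (10.6), LONP1 (9.10), TFAM (7.94), POLRMT (5.71), NRF1 (2.64) and PPARGC1A (0.00485). Neighbours kept their order in 6 of 6 samples for CLPP over TUFM, GFM1 over TFB2M, POLRMT over NRF1 and NRF1 over PPARGC1A. They kept it in 5 of 6 for YME1L1 over CLPP, TUFM over GFM1 and TFAM over POLRMT. TFB2M was above LONP1 in 4 of 6 samples and LONP1 above TFAM in 3 of 6, so LONP1 was not separated in level from either neighbour. In DOX replicate 1 POLRMT was above TFAM, the reverse of the other 5 samples.

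**Figure D2:**
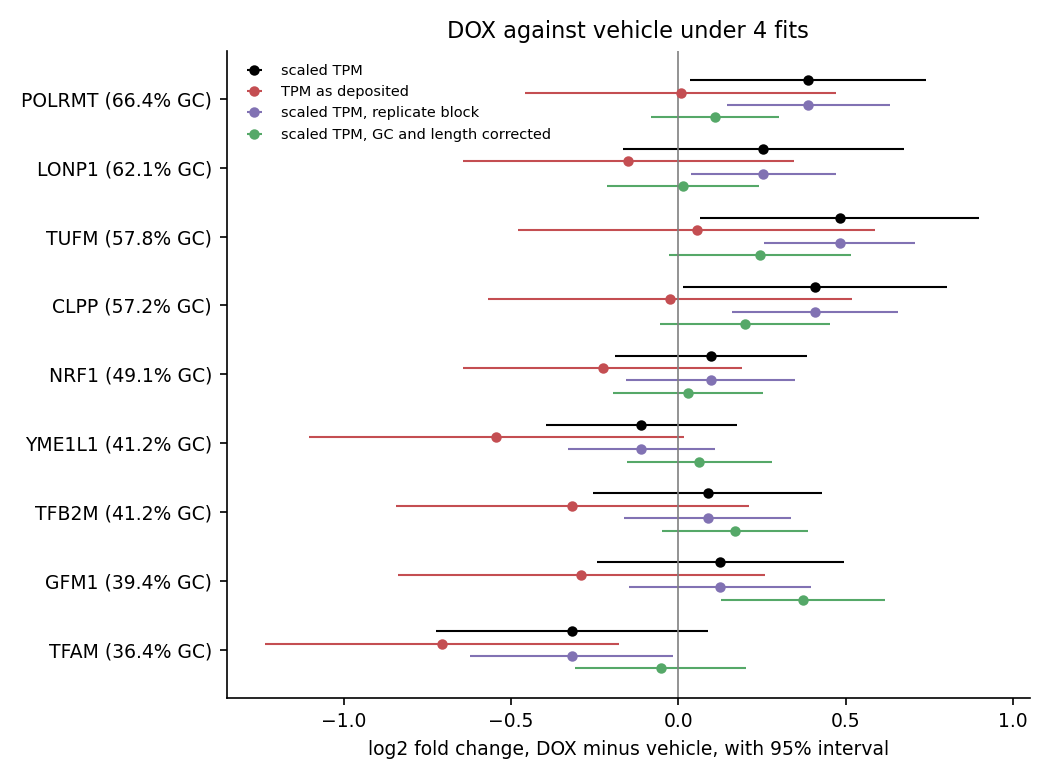
Log2 fold change, DOX minus vehicle, of the 9 tested members with 95% intervals under 4 fits: scaled TPM, TPM as deposited, scaled TPM with the replicate block, and scaled TPM after correction for GC content and length. Genes are ordered by the GC content of their exons, from POLRMT (66.4%) to TFAM (36.4%), and the intervals on scaled TPM lie wholly above 0 for POLRMT, TUFM and CLPP.

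The differences of the members were ordered in part by the base composition of their genes. The 4 members with a GC content of 57.2% to 66.4% (POLRMT, LONP1, TUFM and CLPP) had log2 fold changes from 0.25 to 0.48, and the 5 with 36.4% to 49.1% (TFAM, GFM1, TFB2M, YME1L1 and NRF1) had values from -0.32 to 0.13. The same order ran through all genes, whose median log2 fold change was -0.23 in the lowest of the 5 GC bins and 0.25 in the highest. After a correction for GC content and exon length in each sample, the 4 GC-rich members had values from 0.01 to 0.24 and the other 5 from -0.05 to 0.37. POLRMT went from 0.39 to 0.11, TUFM from 0.48 to 0.24, CLPP from 0.41 to 0.20 and TFAM from -0.32 to -0.05. GFM1 moved the other way, from 0.13 to 0.37, with a 95% interval of 0.13 to 0.62 and a limma adjusted p of 0.276. The sign of YME1L1 turned, from -0.11 to 0.06. DOX replicate 1 carried the strongest GC trend, and without it the log2 fold changes of TUFM, POLRMT and CLPP were 0.35, 0.24 and 0.23, with unadjusted limma p-values of 0.0898, 0.127 and 0.165. These p-values were also over 0.05 without vehicle replicate 2 (0.103, 0.113 and 0.167) and without vehicle replicate 3 (0.0992, 0.0867 and 0.0785). The same unadjusted limma p-values were under 0.05 without vehicle replicate 1 (0.00184, 0.0254 and 0.0209). They were also under 0.05 without DOX replicate 2 (0.0269, 0.0376 and 0.0400) and without DOX replicate 3 (0.0387, 0.0203 and 0.0280). No member was called in any of these fits.

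**Figure D3:**
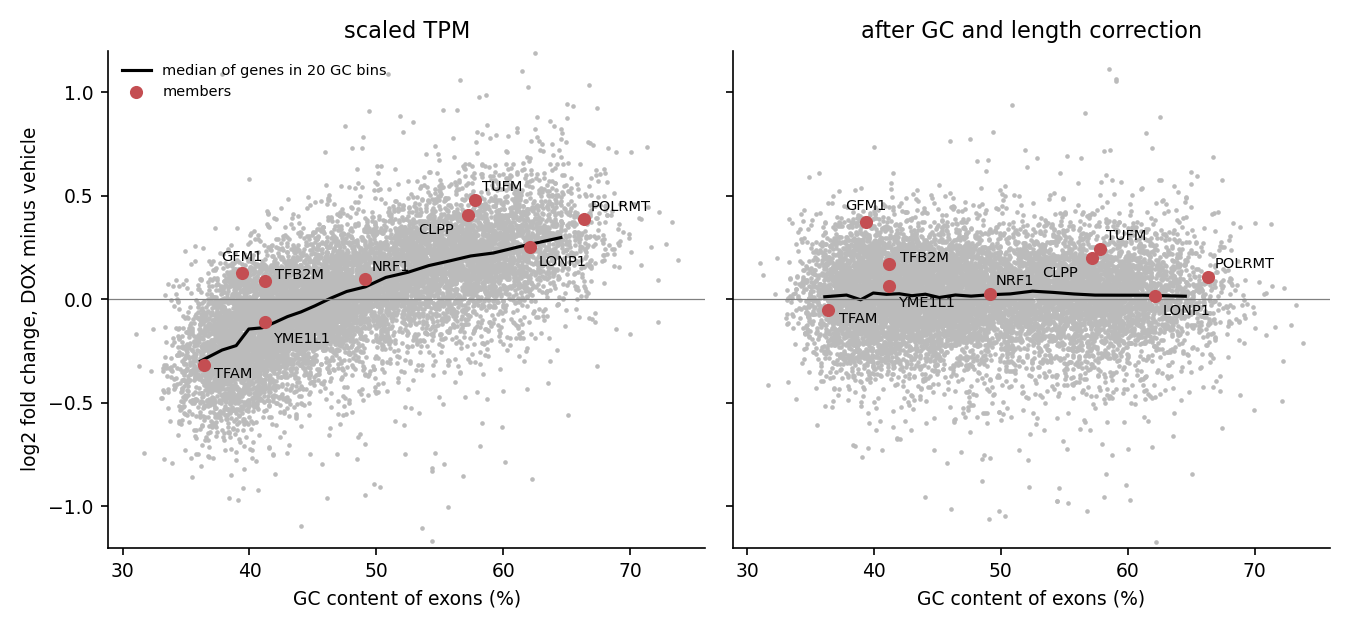
Log2 fold change, DOX minus vehicle, against the GC content of exons (%) for all tested genes with annotation (grey), the median of genes in GC bins (black line) and the 9 members (red), on scaled TPM (left) and after GC and length correction (right). The vertical axis ends at 1.2 in both directions. On the left the median runs from below 0 at low GC to above 0 at high GC with TFAM, YME1L1, NRF1 and LONP1 near it and GFM1 (0.13) and TUFM (0.48) above it; on the right the median is flat and GFM1 is the highest member at 0.37.

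Reads recovered from the TPM allowed a weighted fit (limma voom) with the replicate block. In this fit TUFM, POLRMT and CLPP passed an adjusted p of 0.05 with log2 fold changes of 0.48, 0.50 and 0.46 and adjusted p-values of 0.0210, 0.0278 and 0.0323, and none reached 1.5-fold. That is 3 of 9 members higher and 0 of 9 lower at any fold, where the fit had 5.62% of all genes higher and 7.91% lower. With the fold threshold 0 of 9 members passed in either direction, against 1.47% of all genes higher and 2.12% lower. Without the block, voom gave these 3 genes adjusted p-values of 0.252, 0.252 and 0.270. With the block and the GC and length correction together, their log2 fold changes were 0.20, 0.11 and 0.20 and their adjusted p-values 0.401, 0.672 and 0.406, so that none passed.

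A ratio of genes within a sample does not depend on the scaling. After the values had been seen, 6 ratios were computed between genes whose proteins are partners or have related roles. The ratio of TFB2M to TFAM was 1.15, 1.23 and 1.10 in vehicle samples and 1.69, 1.35 and 1.78 in DOX samples, which did not overlap. The log2 difference was 0.46 (two-sided exact permutation test, p = 0.1, the smallest possible). The ratio of POLRMT to TFAM was 0.647, 0.453 and 0.542 in vehicle samples and 1.56, 0.644 and 0.874 in DOX samples, a log2 difference of 0.82 (exact permutation p = 0.2). Here DOX replicate 2 lay within the range of the vehicle samples. The ratio of CLPP to CLPX, which encodes the unfoldase partner of the peptidase, differed by 0.51 (exact permutation p = 0.2), and that of TUFM to TSFM, which encodes its nucleotide exchange factor, by 0.53 (exact permutation p = 0.2). TUFM to GFM1 and LONP1 to YME1L1 differed by 0.37 and 0.40 (exact permutation p = 0.5 and 0.3). Each of the 6 ratios was higher in the DOX sample in 3 of 3 same-numbered pairs. In each, the first gene has the higher GC content, and the part of GC content was not tested.

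The members stand within 9 lists of mitochondrial genes, with 146 genes in all, of which 140 were tested and 0 were called by limma on scaled TPM. Voom with the block called 3 of them, NRIP1 (-0.60), PRKAA2 (-0.71) and TBRG4 (0.62), where it called 2.12% of all genes lower and 1.47% higher. By adjusted p under 0.05 at any fold, this fit had 13 of the 140 higher and 5 lower, against 5.62% and 7.91% of all genes. Of the 13, 4 were chaperones and 5 were RNA processing and stability genes, and the 5 lower genes were biogenesis regulators. With the GC and length correction added, voom with the block called 0 of the 140. By unadjusted limma p under 0.05 on scaled TPM, 17 of the 140 were higher and 4 were lower, against 8.12% and 7.75% of all genes. The median log2 fold change of the 140 was 0.04. After the GC and length correction 22 were higher and 4 lower, where 874 of 11300 genes were higher and 657 lower.

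**Figure D4:**
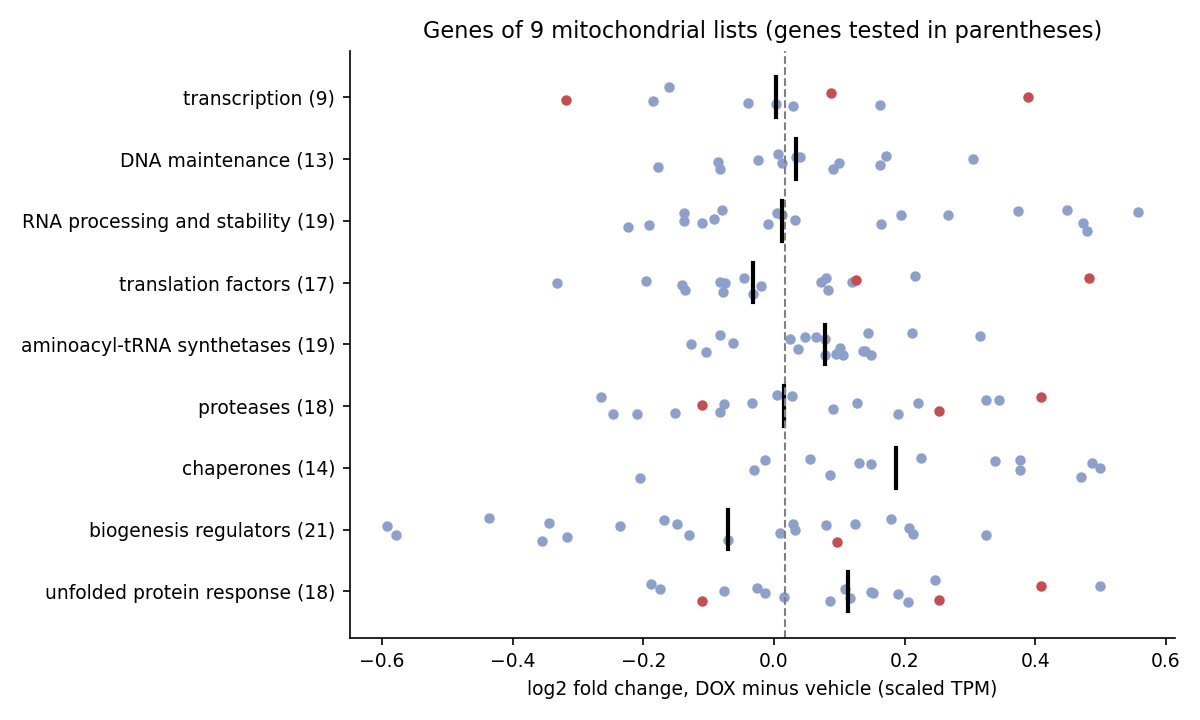
Log2 fold change, DOX minus vehicle, on scaled TPM of every tested gene in 9 mitochondrial gene lists, with 1 point per gene, the members in red and the median of each list as a black bar. The dashed line is the median of all genes tested (0.02). Chaperones lie furthest to the right by median (0.19) and biogenesis regulators furthest to the left (-0.07).

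The chaperone list holds genes whose products fold imported and newly made proteins, and also the prohibitins PHB and PHB2. It had the highest list median, 0.19 on scaled TPM and 0.27 after the GC and length correction. Of 14 tested, 6 had an unadjusted p under 0.05 in the higher direction, 0 in the lower direction, and 0 were called. These were TRAP1, GRPEL1, DNAJA3, PHB, PHB2 and STOML2, and in the same 6 the groups did not overlap. Over all genes tested, 8.12% had such a p in the higher direction and 10.9% had DOX samples wholly above vehicle samples. After the GC and length correction 7 of 14 were higher and 0 lower by unadjusted p, where 874 of 11300 genes were higher and 657 lower. PHB2, a prohibitin of the inner membrane, was 47.9, 33.4 and 31.9 in vehicle samples and 59.8, 50.3 and 49.1 in DOX samples (log2 fold change 0.50, limma adjusted p = 0.281). HSPD1 and HSPA9, the matrix Hsp60 and Hsp70, had log2 fold changes of 0.09 and 0.15. The values on TPM as deposited were 0.06 for PHB2, -0.36 for HSPD1 and -0.29 for HSPA9.

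In the protease list, 3 of 18 tested genes had an unadjusted p under 0.05, all higher: CLPP, PARL, a rhomboid protease, and PMPCA, a subunit of the processing peptidase that removes import signals. Of all genes tested, 8.12% were higher and 7.75% were lower by such a p. PARL and PMPCA had log2 fold changes of 0.32 and 0.34 (limma adjusted p = 0.281 for both) and were named after their values were seen. The list median was 0.02. CLPX, the partner of CLPP, had a log2 fold change of -0.08, and PITRM1 and PMPCB, abundant proteases of imported signal peptides and precursors, had 0.13 and -0.08.

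Among the 17 translation factors TUFM was the only one with an unadjusted p under 0.05, and the list median was -0.03. The share of all genes tested with such a p was 8.12% higher and 7.75% lower. GUF1, which encodes the mitochondrial EF4, was 22.2, 25.5 and 26.97 in vehicle samples and 14.4, 27.2 and 18.9 in DOX samples (log2 fold change -0.33, limma adjusted p = 0.404), with DOX replicate 2 again the highest of the 6. OXA1L, the insertase of the inner membrane, and MRPL58, a ribosome rescue factor, had 0.08 and 0.12 on scaled TPM and -0.35 and -0.31 on TPM as deposited. In the transcription list of 9 genes POLRMT was the one with an unadjusted p under 0.05, and the termination factors MTERF3 and MTERF2 had 0.03 and 0.00252.

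RNA processing and stability had 5 of 19 genes with an unadjusted p under 0.05, all higher: HSD17B10, ELAC2, SLIRP, FASTK and TBRG4. Such a p was reached by 8.12% of all genes tested in the higher direction and 7.75% in the lower. After the GC and length correction 9 of 19 were higher and 0 lower, where 874 of 11300 genes were higher and 657 lower. The list median was 0.01 on scaled TPM and 0.18 after the correction. HSD17B10 and ELAC2 act in cutting mitochondrial tRNAs out of their precursors, and SLIRP binds LRPPRC to stabilise mitochondrial mRNAs. SLIRP was 85.4, 68.8 and 66.5 in vehicle samples and 103, 121 and 85.3 in DOX samples, with a log2 fold change of 0.48 (limma adjusted p = 0.281). LRPPRC had -0.14 on scaled TPM, a sign that turned to 0.20 after the GC and length correction, while SLIRP kept 0.44. TBRG4, a FASTK-family RNA-binding protein, had 0.56 (limma adjusted p = 0.280) and was named after its values were seen.

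Biogenesis regulators were the one list with unadjusted p-values under 0.05 in the lower direction, 4 of 21 tested: NRIP1, PRKAA2, GABPA and MEF2A. Over all genes tested, 7.75% had such a p in the lower direction and 9.15% had DOX samples wholly below vehicle samples. NRIP1 encodes the corepressor RIP140, PRKAA2 a catalytic subunit of AMPK, and GABPA the ETS factor named above. The ETS motif lies in windows of GFM1, TUFM, POLRMT and LONP1, and a link to the level of GABPA was not tested. GABPA was 19.2, 25.0 and 21.4 in vehicle samples and 13.04, 17.96 and 16.8 in DOX samples, with no overlap (log2 fold change -0.44, limma adjusted p = 0.281, named after its values were seen). NRIP1 was 32.2, 39.3 and 37.3 in vehicle samples and 19.5, 30.4 and 22.9 in DOX samples, with a log2 fold change of -0.58 (limma adjusted p = 0.280). After the GC and length correction the differences were -0.21 for GABPA and -0.35 for NRIP1. PRKAA1, NFE2L2 and YY1, the most abundant of the list, had -0.32, -0.07 and 0.03.

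The list of the mitochondrial unfolded protein response, which is the program induced when mitochondrial proteins misfold, had 2 of 18 tested genes higher by unadjusted p, CLPP and ENDOG, and 0 lower. By the same p, 8.12% of all genes tested were higher and 7.75% were lower. After the GC and length correction 0 of 18 were higher and 0 lower, where 874 of 11300 genes were higher and 657 lower. The list median was 0.11 on scaled TPM and 0.01 after the GC and length correction. The regulator ATF4 was 64.6, 57.2 and 55.3 in vehicle samples and 72.8, 57.8 and 62.1 in DOX samples (log2 fold change 0.12, limma adjusted p = 0.651), and the sign turned to -0.11 after the correction. ATF5 and DDIT3, other regulators of the program, had 0.21 and -0.19 and were named after their values were seen. UBL5, a small ubiquitin-like factor of the response, had 0.15. Transcripts encoded by mitochondrial DNA were not analysed here.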

How the data were processed

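RNA-seq was analysed for 3 vehicle and 3 DOX samples, grouped by their labels. The study isolated total RNA (Trizol in its methods, a column kit in the sample records), prepared stranded mRNA libraries, aligned reads with STAR to GRCh38, and the authors deposited TPM per gene symbol. Versions of STAR and DESeq2 are not given in the sources used here. The deposited comparison table holds fold changes, standard errors and p-values of DESeq2, which were not used, and a signal, the mean of normalized counts, which served with the TPM to recover reads (98.9% of low values whole within 0.05, against 10% by chance).

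TPM were scaled by the median of ratios. DOX was compared with vehicle by limma (version 3.58.1, R 4.3.3; trend, no block) on log2(scaled TPM + 1) for genes with a mean of at least 1, with Benjamini-Hochberg adjustment. Fold changes on this scale understate those of low genes. The test was checked on simulated 2-fold changes and recovered 189 of 198, with 8 false calls among 11599 genes. The simulation held no GC trend and no shared deviation of same-numbered samples, so it does not cover those features of the data. Reads were used for voom and for depth, which ranged from 5453536 to 64562332 reads and limits genes with few reads. GC content and length came from GENCODE 44, which held 92.0% of symbols. Same-numbered samples deviated together (r of 0.56, 0.26 and 0.19 for numbers 1, 2 and 3), so a block was fitted as well. The pairing rests on these correlations alone, and after the GC and length correction they were 0.16, 0.01 and 0.15. Tables and figures used Python 3.11.15, pandas 2.3.3, SciPy 1.17.1 and matplotlib 3.10.9.

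All members were named. From each list, called genes and the 3 of highest mean TPM were named, and any other gene is said to be named after its values were seen, including those given as reaching an unadjusted p. One gene that the rule names and one marker are not reported here. Members and lists were chosen with earlier results of these data known.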

Additional observations from a re-analysis of the deposited data

How the results depend on the processing

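Alternatives changed the scale, pseudocount, filter, replicate block, GC and length correction and fit, or left out a sample. Where the count of called genes was 0 (270 at an unadjusted p), it was 351 on TPM as deposited, 2232 there with the replicate block, 1 with a mean of at least 5, 1 with voom, 416 with voom and the block, 5 with voom, block and GC correction, and 0 to 14 without a sample. Called list genes numbered 2 on TPM as deposited, 12 with the block there, 3 with voom and the block, and 1 at an unadjusted p. Called members numbered 1 (TFAM) with the block on TPM as deposited, and the replicate block changed no other member's call. Signs turned on TPM as deposited, with or without the block, for LONP1 (-0.15), CLPP (-0.025), GFM1 (-0.29), NRF1 (-0.23), TFB2M (-0.32), MTERF3 (-0.39), MTERF2 (-0.40), DGUOK (-0.35), SSBP1 (-0.39), RNASEH1 (-0.38), REXO2 (-0.43), MRPL58 (-0.31), OXA1L (-0.35), GATC (-0.33), PITRM1 (-0.31), HSPD1 (-0.36), HSPA9 (-0.29), YY1 (-0.40), UBL5 (-0.29) and ATF4 (-0.32), where the median of all genes was -0.35. Leaving the 5 small RNAs out of TPM gave MTERF3 -0.059, MTERF2 -0.085, SSBP1 -0.049, RNASEH1 -0.052, REXO2 -0.085, OXA1L -0.0037, GATC -0.0051, HSPD1 -0.0032 and YY1 -0.055. The GC and length correction, with or without the replicate block, gave YME1L1 0.062, LRPPRC 0.20, MRPL58 -0.022, PMPCB 0.21, NFE2L2 0.10 and ATF4 -0.11. Voom gave MTERF3 -0.015, and with the block MTERF2 -0.0029. Voom with the block and the GC correction gave LONP1 -0.036, YME1L1 0.095, LRPPRC 0.26, IARS2 0.0082, PMPCB 0.26, PRKAA1 0.0094, NFE2L2 0.13, UBL5 -0.0073 and ATF4 -0.16. Without 1 sample, values ranged from 0.090 to 0.43 for LONP1, 0.23 to 0.52 for CLPP, 0.24 to 0.50 for POLRMT, 0.35 to 0.69 for TUFM, -0.53 to -0.16 for TFAM, -0.21 to -0.050 for YME1L1, 0.054 to 0.17 for NRF1, -0.013 to 0.28 for GFM1, -0.018 to 0.21 for TFB2M, -0.089 to 0.16 for MTERF3, -0.096 to 0.11 for MTERF2, -0.099 to 0.18 for SSBP1, -0.082 to 0.057 for REXO2, -0.070 to 0.16 for GATC, -0.16 to 0.010 for PMPCB, -0.054 to 0.19 for HSPD1, -0.022 to 0.24 for HSPA9 and -0.053 to 0.085 for YY1. The causes were not tested. Depth limits PPARGC1A, with at most 3 reads in a sample. With 3 samples a group, limma found none of the 9 members past its threshold, which does not show equal levels: the 95% interval of TUFM reaches 0.90.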

Other observations

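The enzymes that charge mitochondrial tRNAs and the factors that copy mitochondrial DNA are not among the 10 genes but work beside them. Of 20 aminoacyl-tRNA synthetase and amidotransferase genes 19 were tested, 0 had an unadjusted limma p under 0.05 on scaled TPM, and the median log2 fold change was 0.08. Among all genes tested, 8.12% were higher and 7.75% were lower by such a p. IARS2, the most abundant, was 54.8, 59.7 and 48.3 scaled TPM in vehicle samples and 47.5, 57.1 and 46.8 in DOX samples. GATC, an amidotransferase subunit, had a log2 fold change of 0.08. Of 13 mitochondrial DNA maintenance genes 13 were tested, again with 0 at an unadjusted p under 0.05 and a median of 0.03. DGUOK, a deoxynucleoside kinase, was 36.2, 33.5 and 38.0 in vehicle samples and 35.8, 40.3 and 38.6 in DOX samples. SSBP1, the single-strand DNA-binding protein, and RNASEH1 had 0.04 and 0.03.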
